A study of Rattus norvegicus with 6 samples.

Results

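Rat PC12 cells, a line from a pheochromocytoma of the adrenal medulla, were compared with and without overexpression of PCBP-1, a poly(rC)-binding protein that acts on transcription, splicing and stability of RNA. The genes described here are the core Bcl2 family and the initiator caspases of apoptosis: Bcl2, Bcl2l1, Mcl1, Bax, Bak1, Bid, Bcl2l11, Casp8 and Casp9. They were chosen by name, and rows of the count table with one of these symbols were taken. Of the 9 listed genes, 8 were matched among the 20609 genes of the table, and Mcl1, an anti-apoptotic family member, had no matching row and is not analysed here. The control group held 3 libraries of cells transfected with a control plasmid, and the PCBP1-OE group held 3 libraries of cells given a plasmid for EGFP-tagged PCBP-1. Poly-A RNA was sequenced in all 6, with 19730209 to 22315623 counts on genes per library. Lipofectamine was the transfection reagent for the PCBP-1 plasmid in the methods, which give no share of transfected cells and no harvest time for RNA-seq, while the introduction speaks of stable overexpression. All groups are the same parental line, and nothing in the labels says that the 3 libraries of a group came from separate cultures, so that p-values measure the spread between these libraries, which may be technical.

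The Bcl2 family decides whether the outer membrane of the mitochondrion is opened. Bcl2 and Bcl2l1 (Bcl-xL) hold the effectors Bax and Bak1 in check, and BH3-only proteins such as Bid and Bcl2l11 (Bim) relieve that block or act on the effectors directly. Open mitochondria release cytochrome c, which assembles with Apaf1 into the apoptosome and activates Casp9. Casp8 is activated at death receptors and can cut Bid, which ties the receptor route to the mitochondrion. Chromaffin and sympathetic cells depend on growth factor signals that act in part through this family, and PC12 cells are widely used to study neuronal death. Most of this control acts on proteins, by binding, cleavage and phosphorylation, and transcript counts do not measure it.

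The label of the cells was compared with marker genes before the results. Of 8 chromaffin markers, 7 had a row, and their summed level was 10.3 to 11.1 CPM (the counts of a gene relative to the total of its library, scaled by the TMM method) in controls and 10.1 to 11.4 CPM in PCBP1-OE. Chga, Chgb, Dbh and Ddc were at or near 0, with at most 9 counts in a library, while Th, the rate-limiting enzyme of catecholamine synthesis, was at 7.95 ± 0.846 CPM in controls (SD, n = 3). The Schwann and glial list summed to 620 to 664 CPM in controls and 586 to 606 CPM in PCBP1-OE, of which Sox10 alone made up 400 ± 9.45 CPM and, with PCBP1-OE, 367 ± 6.73 CPM (SD, n = 3 each). The defining chromaffin granule genes were thus nearly absent under the label PC12, in both groups. The leukocyte, fibroblast and endothelial lists summed to at most 7.86, 229 and 1.48 CPM in any library, and Pdgfra gave nearly all of the fibroblast sum. The glial, fibroblast and leukocyte sums were lower in every PCBP1-OE library than in every control (leukocytes 6.18 to 6.35 against 6.87 to 7.86 CPM, fibroblasts 199 to 211 against 224 to 229 CPM), although 0 of these markers were called. Their part in the results below was not tested. Control replicate 3 lay nearer to the PCBP1-OE libraries than to its own group. Its root mean square distance in log2 CPM over the genes tested was 0.328 to 0.342 to the PCBP1-OE libraries and 0.343 and 0.363 to the other controls. By the chi-square per gene of raw counts, control replicate 1 was the one farthest from the other controls (10.6 and 16.0, against 6.54 between replicates 2 and 3).

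No member was called different between PCBP1-OE and control cells. With edgeR's quasi-likelihood test over 12624 genes and Benjamini-Hochberg adjustment, 0 of the 8 members had a false discovery rate of 0.05 or less (written edgeR FDR from here on), while 9.45% of all genes tested did. At an unadjusted p under 0.05 there was 1 member, Bax, against 28.4% of all genes. DESeq2 and limma-voom also called 0 members. All 8 members passed the filter on low counts. The 4 log2 fold changes above 0 and the 4 below 0 had a median of 0.00069, and that of all genes tested was 0.0029. The median size of the change, without its sign, was 0.095 on the log2 scale in members and 0.13 in all genes. In 2 members, Bax and Bcl2l1, the groups did not overlap, beside 30.6% of all genes with groups apart. For 7 of the 8 members the 95% interval of the change lay inside 2-fold in both directions, and the exception was Bcl2. In bulk RNA, fewer cells of a kind and less RNA per cell cannot be told apart.

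**Figure D1:**
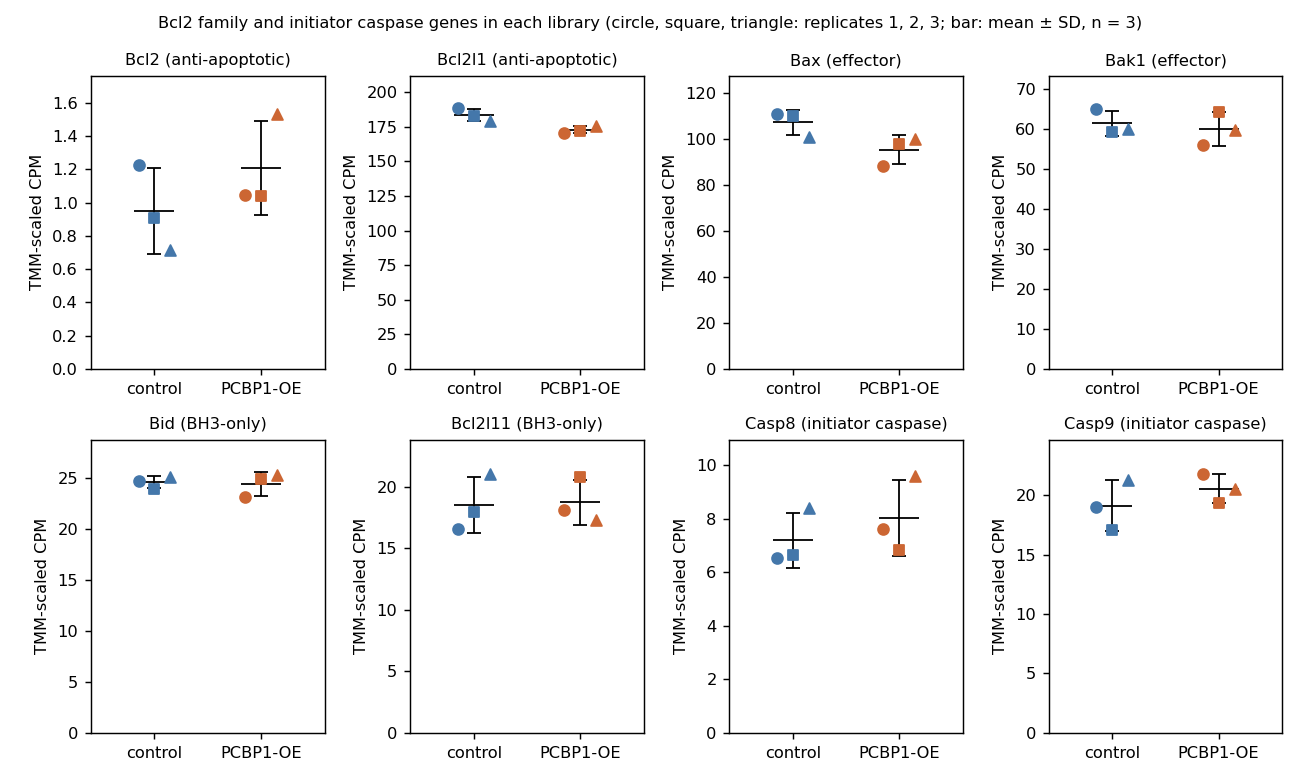
Level of each member in every library, as TMM-scaled CPM on a linear axis from 0, for controls (blue) and PCBP1-OE (orange); bars are the mean and SD of 3 libraries. The groups overlap in 6 of the 8 genes, and only in Bax and Bcl2l1 do all PCBP1-OE libraries lie under all controls.

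Among the anti-apoptotic genes, Bcl2l1 (ENSRNOG00000007946, chromosome 3) was counted 3691, 3823 and 4017 times in controls and 3761, 3474 and 3439 times in PCBP1-OE. Its levels were 188, 183 and 179 CPM in controls, against 171, 172 and 176 CPM with PCBP1-OE. Every PCBP1-OE library was below every control, but by a narrow margin. The log2 fold change was -0.087 (SE 0.043, 95% interval -0.18 to 0.0053), and the edgeR FDR was 0.202. Bcl2l1 varied little between libraries, by 2.49% of its mean in controls and 1.45% in PCBP1-OE, where counting error alone gives 1.61% and 1.68%.

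Bcl2 (ENSRNOG00000002791, chromosome 13), the founding member of the family, rested on few reads. Controls gave 24, 19 and 16 reads and PCBP1-OE libraries 23, 21 and 30. These are 1.22, 0.910 and 0.714 CPM in controls, against 1.04, 1.04 and 1.53 CPM with PCBP1-OE, and control replicate 1 lay above 2 of the PCBP1-OE libraries. The spread was 27.1% of the mean in controls and 23.4% in PCBP1-OE, close to the 22.5% and 20.1% that counting error gives. The log2 fold change of 0.35 had a SE of 0.31 and a 95% interval of -0.32 to 1.01 (edgeR FDR 0.495), and the sign turned (-0.030) in a fit, chosen after seeing the data, without the replicates numbered 3. The interval reached a 2-fold increase but not a 2-fold decrease.

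Bax and Bak1 are the effectors that form the pores. Bax (ENSRNOG00000020876, chromosome 1) was the member nearest to a call. It was counted 2171, 2295 and 2267 times in controls and 1943, 1976 and 1956 times in PCBP1-OE. Its levels were 111, 110 and 101 CPM in controls, against 88.2, 97.9 and 99.9 CPM with PCBP1-OE. The lowest control, replicate 3, and the highest PCBP1-OE library, also replicate 3, were nearly level. The group means were 107 ± 5.35 and 95.3 ± 6.27 CPM (SD, n = 3 each), and the fitted log2 fold change was -0.17 (SE 0.056, 95% interval -0.29 to -0.049) or -11.1%. Its unadjusted p of 0.00941 from edgeR's quasi-likelihood test ranked 1685 among 12624 genes and came to 0.0705 after Benjamini-Hochberg adjustment. The call turned on 1 library and on the filter. Leaving out control replicate 3 gave -0.21 at an edgeR FDR of 0.0106, and testing all genes with counts gave 0.0367, while 12 other settings did not pass. Over these 14 settings the FDR ran from 0.0106 to 0.305. Calls over all genes also rose in both settings that called Bax. They were 2860 of 12815 genes tested without control replicate 3 and 2090 of 20609 with no filter, against 1193 of 12624 in the main fit. A fit chosen after seeing the data, which left out the replicates numbered 3 of both groups, gave -0.25 at 0.00535.

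Bak1 (ENSRNOG00000000485, chromosome 20) was at 65.1, 59.3 and 60.0 CPM in controls, against 56.0, 64.4 and 59.8 CPM with PCBP1-OE, from 1171 to 1346 counts per library. The values of both groups were interleaved. Its log2 fold change was -0.033 (SE 0.061, 95% interval -0.16 to 0.098). Whether the changes of Bax and Bak1 differ was not tested.

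Of the 8 members, the BH3-only genes Bid and Bcl2l11 had the smallest log2 fold changes in size. Bid (ENSRNOG00000012439, chromosome 4), the substrate of Casp8, was at 24.7, 24.0 and 25.2 CPM in controls, against 23.1, 24.9 and 25.3 CPM with PCBP1-OE. Its spread was 2.47% of the mean in controls, below the counting error of 4.40%, and 4.64% in PCBP1-OE, near the counting error of 4.46%. The log2 fold change was -0.012 (95% interval -0.17 to 0.15). Bcl2l11 (ENSRNOG00000016551, chromosome 3), which encodes Bim and is known to rise in neurons deprived of growth factor, was at 16.6, 18.0 and 21.0 CPM in controls, against 18.1, 20.8 and 17.3 CPM with PCBP1-OE. Control replicate 3 was the highest of all 6 libraries for this gene. The log2 fold change was 0.013 (95% interval -0.22 to 0.24), and the sign turned when control replicate 1, control replicate 2 or PCBP1-OE replicate 2 was left out.

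Both initiator caspases had group means that were slightly higher in PCBP1-OE, within the spread of the libraries. Casp8 (ENSRNOG00000012331, chromosome 9) was counted 128, 139 and 188 times in controls and 168, 138 and 188 times in PCBP1-OE. It was at 6.53, 6.66 and 8.38 CPM in controls, against 7.62, 6.84 and 9.60 CPM with PCBP1-OE, so that control replicate 3 lay above PCBP1-OE replicates 1 and 2. The log2 fold change was 0.15 (SE 0.16, 95% interval -0.18 to 0.49, edgeR FDR 0.558). Without PCBP1-OE replicate 3 it was 0.014, and without control replicate 3 it was 0.28.

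Casp9 (ENSRNOG00000012944, chromosome 5) was at 19.0, 17.1 and 21.3 CPM in controls, against 21.8, 19.4 and 20.5 CPM with PCBP1-OE. Control replicate 3 was again the highest control and exceeded 2 PCBP1-OE libraries. The log2 fold change was 0.10 (SE 0.097, 95% interval -0.11 to 0.31, edgeR FDR 0.521). It moved between 0.033, without control replicate 2, and 0.19, without control replicate 3. Over the members, control replicate 3 was the highest control for Bid, Bcl2l11, Casp8 and Casp9 and the lowest for Bcl2, Bcl2l1 and Bax.

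**Figure D2:**
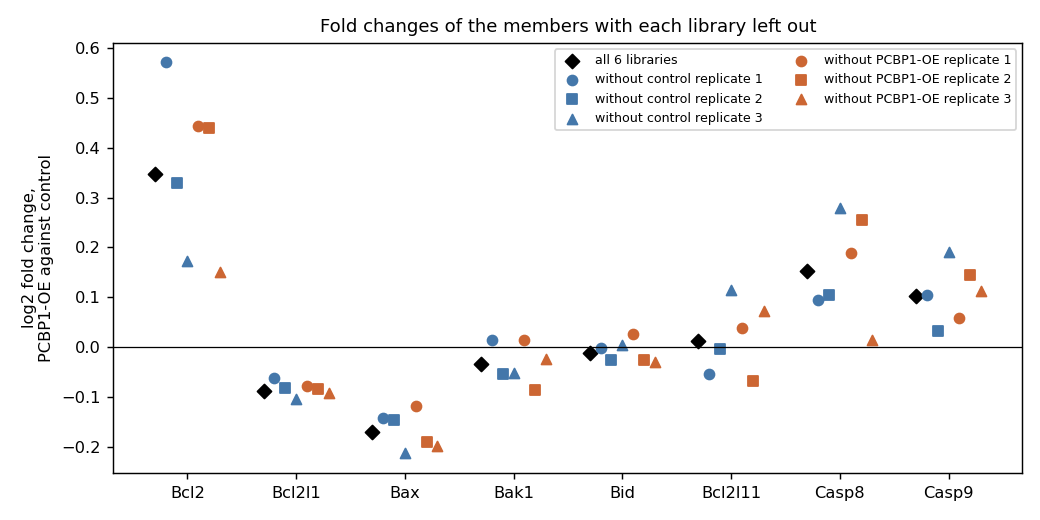
Log2 fold change of each member, PCBP1-OE against control, with all 6 libraries (black) and with each library left out in turn (blue, a control left out; orange, a PCBP1-OE library left out). Bax and Bcl2l1 stay below 0 and Bcl2, Casp8 and Casp9 above 0 in these 7 fits, while Bak1, Bid and Bcl2l11 take both signs.

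Ratios of counts within a library need no scaling between libraries, and the ratio of Bax to Bcl2 is often read as a balance of death and survival. As log2 of the counts, it was 6.50, 6.92 and 7.15 in controls, against 6.40, 6.56 and 6.03 with PCBP1-OE. The means were 6.85 ± 0.328 and 6.33 ± 0.272 (SD, n = 3 each), a difference of -0.53. Control replicate 1 lay below PCBP1-OE replicate 2, so the groups overlapped. Bcl2 enters this ratio with 16 to 30 counts per library. The ratio of Bax to Bcl2l1 rests on deeper counts. It was -0.77, -0.74 and -0.83 in controls, against -0.95, -0.81 and -0.81 with PCBP1-OE, a difference of -0.085, and here too the groups overlapped. The ratio of Bak1 to Bcl2l1 averaged -1.58 ± 0.0472 over the controls and, with PCBP1-OE, -1.53 ± 0.0978 (SD, n = 3 each). These ratios combine the members and were given no test. They do not compare the levels of 2 genes, because counts grow with transcript length.

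**Figure D3:**
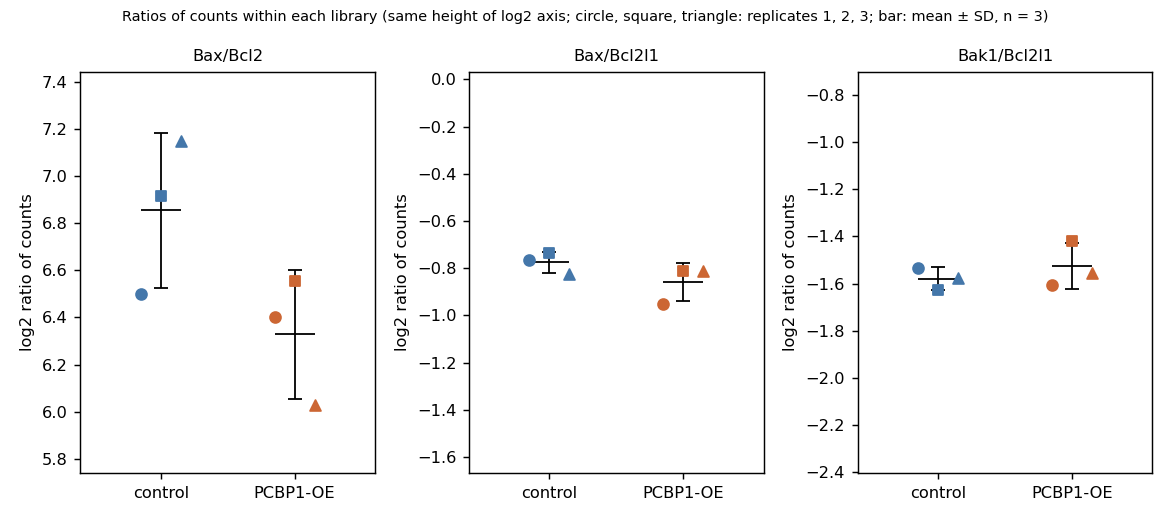
Log2 ratio of counts within each library for Bax to Bcl2, Bax to Bcl2l1 and Bak1 to Bcl2l1, in controls (blue) and PCBP1-OE (orange), on axes of equal height that do not start at 0; bars are the mean and SD of 3 libraries. The groups overlap in all 3 ratios, and the spread is widest for Bax to Bcl2, whose mean differs by -0.53.

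The rest of the pathway was described from 52 further apoptosis genes, of which 48 had a row (Cycs had 2) and 39 rows were tested. Of these, 2 were higher and 4 lower in PCBP1-OE at an FDR of 0.05 or less, while 4.45% and 5.00% of all genes were called in those directions. The median log2 fold change was -0.015. Of the 39, 15 had groups that did not overlap, against 30.6% of all genes. With all libraries in edgeR, no gene among them reached 2-fold, a threshold that 0.190% of all genes passed together with the FDR. With the replicate number added to the edgeR model as a block, 0 of the 39 were called, beside 16 of all 12624 genes.

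Of the other Bcl2 family genes, 12 of 15 had a row and 8 were tested, of which 0 were called higher and 2 lower. Bok, an effector related to Bax and Bak1, fell from 96.8, 96.4 and 87.4 CPM to 76.6, 85.2 and 80.6 CPM, a log2 fold change of -0.21 (SE 0.055, edgeR FDR 0.0354). Bad, a BH3-only protein controlled by phosphorylation, fell from 46.0, 44.1 and 38.4 CPM to 37.3, 34.0 and 36.5 CPM, a log2 fold change of -0.25 (SE 0.074, edgeR FDR 0.0498). In both, all PCBP1-OE libraries were below all controls, and control replicate 3 was the lowest control. Bok was no longer called in any of 5 fits that left out a library other than control replicate 3 (edgeR FDR up to 0.173), or with the replicate block (0.129). Bad was lost in the same 5 fits (up to 0.191) and in 5 other settings, the replicate block (0.144) among them. The ends of this list were Bcl2l12, with a log2 fold change of -0.27 (edgeR FDR 0.103, with 0.0307 without control replicate 3 and 0.312 without control replicate 1), and Bmf, a BH3-only gene with 0.24 (edgeR FDR 0.658). Pmaip1, the BH3-only gene Noxa, had 1 count in control replicate 1 and 0 in the other 5 libraries, where a count of 0 allows up to 0.134 to 0.153 CPM for counting error alone.

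Of the other caspases, 8 of 8 had a row and 7 were tested, with 1 called higher and 0 lower. Casp4, an inflammatory caspase that responds to bacterial lipopolysaccharide in the cytosol, rose from 72.6, 77.6 and 72.4 CPM to 81.0, 87.9 and 88.6 CPM. Its groups did not overlap, and the log2 fold change was 0.21 (SE 0.052, edgeR FDR 0.0289). Without control replicate 1 or 2 or PCBP1-OE replicate 2 or 3 it was no longer called (edgeR FDR 0.0657 to 0.113). Casp1, also inflammatory, had the lowest value of the list at -0.60 (95% interval -1.58 to 0.38) from 4 to 17 counts, and Casp12 the highest at 0.31 (95% interval -0.091 to 0.72), and the latter ranged from 0.19 (edgeR FDR 0.635 without control replicate 1, 0.652 without PCBP1-OE replicate 2) to 0.59 (0.0125 without control replicate 3) with a library left out. Casp6 had 1 count in control replicate 1 and 0 elsewhere.

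Of the genes of the apoptosome and of mitochondrial release, 8 of 8 had a row and 0 of 8 tested were called, with 3 at an unadjusted p under 0.05, beside 28.4% of all genes. Apaf1, the scaffold of the apoptosome, had the highest value, a log2 fold change of 0.28 (95% interval 0.027 to 0.53, edgeR FDR 0.135, and 0.16 at 0.485 without PCBP1-OE replicate 1), with 14.5, 13.2 and 13.6 CPM in controls, against 19.2, 14.0 and 16.7 CPM with PCBP1-OE. Endog, a mitochondrial nuclease, had the lowest at -0.19 (95% interval -0.45 to 0.073). The 3 at an unadjusted p under 0.05 were Apaf1, which was higher, and Diablo and Htra2, which were lower (-0.10 and -0.14). Groups did not overlap in 4 of the 8, against 30.6% of all genes. These were Aifm1 (-0.095), Diablo, Htra2 and Endog, all lower in PCBP1-OE. Of the 8 log2 fold changes, 3 were above 0 and 5 below. Cycs, cytochrome c, had a log2 fold change of -0.087 for the row on chromosome 4. A second Cycs row held 2 counts in all, and reads of near-identical copies of this gene may be split between rows or lost.

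Among inhibitors of apoptosis, 7 of 7 had a row and 5 were tested, with 1 called higher and 1 lower. Birc5, survivin, which also serves the chromosomal passenger complex in mitosis, fell from 64.9, 60.4 and 52.0 CPM to 43.4, 44.5 and 50.8 CPM. The groups did not overlap, by a margin between the replicates numbered 3, and the log2 fold change was -0.35 (SE 0.081, edgeR FDR 0.0221). It was no longer called without control replicate 1 or 2 or PCBP1-OE replicate 1 or 2 (edgeR FDR 0.0924 to 0.121). Birc6, a very large ubiquitin-conjugating inhibitor of apoptosis, was at 16.0, 7.09 and 8.16 CPM in controls, against 15.6, 21.9 and 22.3 CPM with PCBP1-OE. Control replicate 1 lay above PCBP1-OE replicate 1, so that the groups overlapped. Its log2 fold change of 0.94 (SE 0.24, edgeR FDR 0.0301) was the largest among the apoptosis genes tested. The call was lost without control replicate 2 (0.155) or PCBP1-OE replicate 1, 2 or 3 (0.0621 to 0.113). It was also lost with DESeq2 (0.0995) and with the replicate block (0.131). The change exceeded 2-fold and passed with limma-voom (1.02, FDR 0.0197) and without control replicate 1 (1.39, edgeR FDR 0.00848).

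Of the death receptors, their ligands and adaptors, 13 of 14 had a row and 11 were tested, with 0 called higher and 1 lower. Tnfrsf1a, the main receptor for tumor necrosis factor, fell from 74.7, 80.1 and 72.2 CPM to 62.4, 63.5 and 61.8 CPM. The groups were well apart, with a log2 fold change of -0.27 (SE 0.051, edgeR FDR 0.0111), and without single libraries it was lost in 2 cases, without control replicate 2 (0.0692) or PCBP1-OE replicate 2 (0.0512). Faslg had the highest value at 0.39 (95% interval -0.15 to 0.92) from 22 to 33 counts, and Tnfrsf21 the lowest at -0.38 (95% interval -1.53 to 0.76) from 2 to 14 counts. The adaptor Fadd and the Casp8 inhibitor Cflar, which act beside Casp8 at the receptors, had log2 fold changes of 0.16 and 0.20 (edgeR FDR 0.655 and 0.426).

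**Figure D4:**
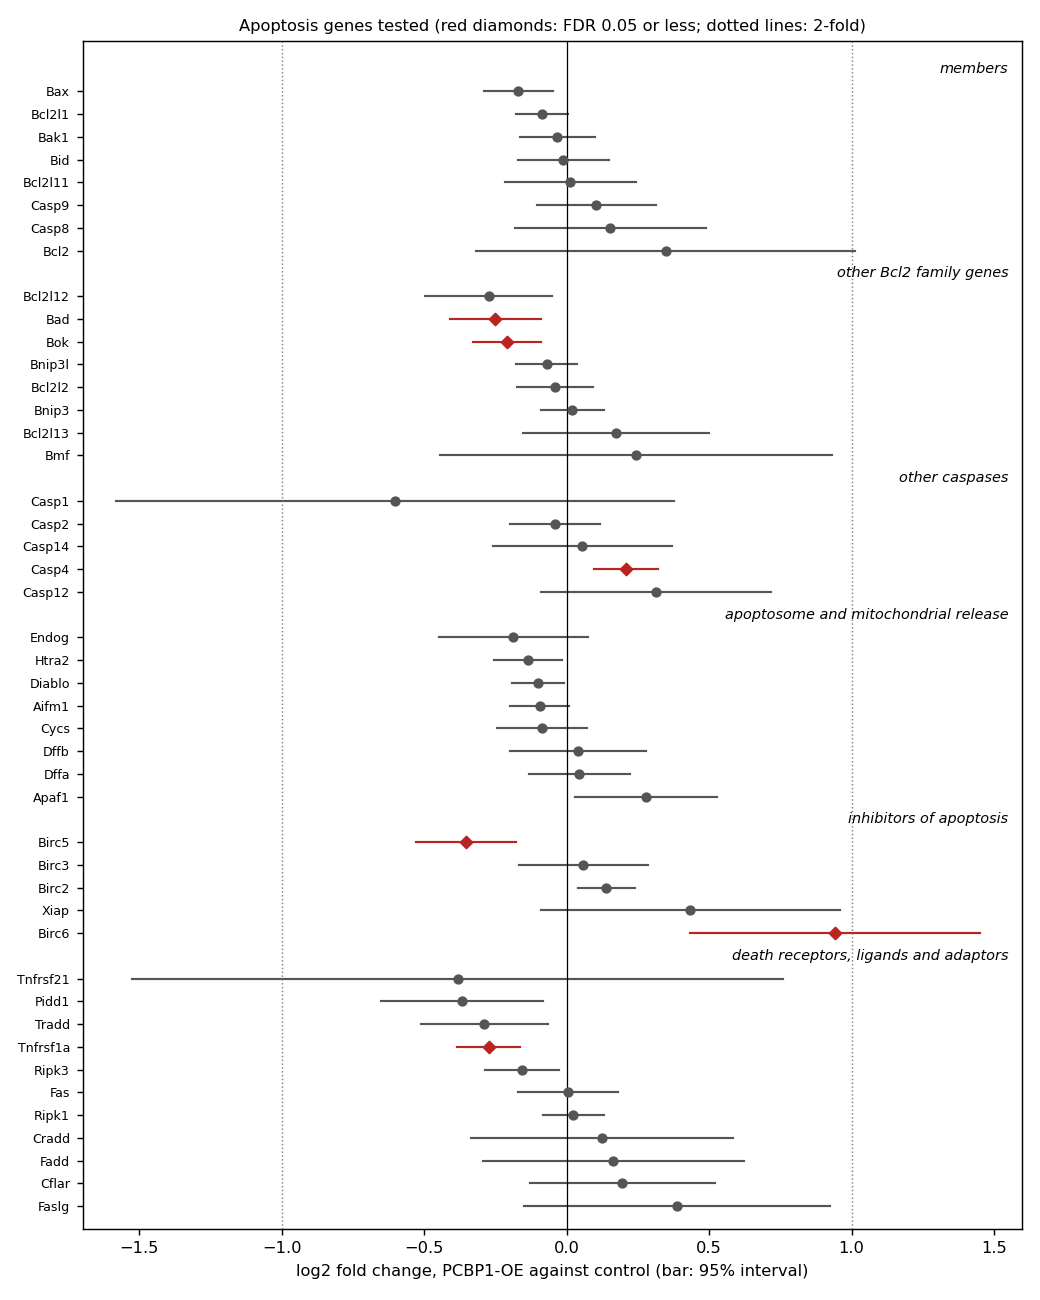
Log2 fold change with its 95% interval for the 8 members and 37 of the 39 other apoptosis genes tested, PCBP1-OE against control, grouped by role (x axis, log2 scale; dotted lines, 2-fold). All 8 members are grey, as not called, and the 6 red diamonds are Bok, Bad, Casp4, Birc5, Birc6 and Tnfrsf1a, which passed an FDR of 0.05.

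The genes whose pattern over the 6 libraries was most like that of Bax, the member with the lowest p, were LOC100360491 (a 60S ribosomal protein L13-like gene), Phpt1 and Krtcap2. Their log2 CPM, centred on each gene's own mean, lay at root mean square distances of 0.018, 0.019 and 0.021 from that of Bax over 6 libraries. Their log2 fold changes were -0.17, -0.13 and -0.16, and none was called (edgeR FDR 0.0662, 0.139 and 0.128).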

How the data were processed

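Raw counts of uniquely mapped reads per gene were deposited by the authors. Per the methods, reads were trimmed with FASTX-Toolkit and aligned to Rnor_6.0 by TopHat2. GEO's processing notes list GRCh38, although the rows carry rat identifiers, and labels and methods name different library kits. How reads were assigned to overlapping genes or strands is not given in the sources used here.

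Libraries were grouped by title. The filter (edgeR filterByExpr, minimum count 10, minimum total 15) kept 12624 genes and removed 7985. After TMM scaling, groups were compared without pairing by edgeR 4.0.16 (quasi-likelihood test, R 4.3.3), with Benjamini-Hochberg adjustment over all genes tested. SE is the size of the log2 fold change over the square root of F. In 14 other settings, the analysis changed the scaling (RLE, upper quartile), the filter (none, or 1 CPM in 3 libraries), the test (DESeq2 1.42.0, limma-voom 3.58.1, exact test), added a replicate block, or omitted each library. After seeing the data, 1 fit without both replicates numbered 3 was added. Fits with genomic gene span, from the RefSeq assembly GRCr8, were also run then, and their values are not reported, because the counts are on another build. The pipeline was tested on simulated data.

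Members and lists were chosen with earlier results of these data known. The text names all members, up to 3 called genes per direction and list, the highest and lowest of each list, and the 3 profiles nearest to Bax. Pmaip1, Casp6, Cycs, Fadd and Cflar were named after their values were seen, and 2 genes of the caspase list are not reported here. The overexpressed gene had no matching row and is not analysed here. Libraries within groups were not duplicates (chi-square per gene 5.49 to 16.0). Totals of 19730209 to 22315623 counts set the precision.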

Additional observations from a re-analysis of the deposited data

How the results depend on the processing

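All 8 members stayed uncalled under RLE and upper-quartile scaling, the stricter filter, DESeq2 (which gave Bcl2 no adjusted p), limma-voom, the exact test and the replicate block. With no filter 1 member was called, Bax, and the number ranged from 0 to 1 with single libraries left out. The number of other apoptosis genes called, 6 with all libraries, was 0 with the replicate block and 0 to 12 with a library left out (0 without control replicate 2 or PCBP1-OE replicate 2, 12 without control replicate 3). Over all genes, 1193 calls became 2090 with no filter and 16 with the replicate block. With a library left out they ran from 48, without control replicate 2, to 2860, without control replicate 3. Higher and lower calls over all genes were 562 and 631, and 655 and 427 under upper-quartile scaling. Same-numbered libraries did not deviate together (correlations -0.10, -0.081 and -0.11), so the numbers were not taken as pairs. Signs turned for Bid under upper-quartile scaling (0.0081). With a library left out, signs turned for Bak1 (-0.086 to 0.015), Bid (-0.029 to 0.026), Bcl2l11 (-0.067 to 0.11), Bmf (-0.034 to 0.67) and Tnfrsf21 (-0.83 to 0.060), none called in these fits. With 1 library left out, the log2 ratio of Bax to Bcl2 differed by -0.70 to -0.38. Without both replicates numbered 3, a choice made after seeing the data, it differed by -0.23. Chosen after seeing the data, a fit without control replicate 3 and PCBP1-OE replicate 3 called 1 member, Bax, 12 other apoptosis genes and 3115 of all genes, turned the sign of Bcl2 (-0.030, against 0.15 to 0.57 with 1 library left out), took Bcl2l11 to 0.17 and Bmf to 0.72 and ended the call of Birc6 (edgeR FDR 0.0650). Fits with genomic gene span as an offset, also run then, changed calls too, those of Bok and Bad among them, and are not reported, since the spans were those of GRCr8, not of the build behind the counts. The causes were not tested. Bcl2, Bmf, Casp1, Faslg and Tnfrsf21 had at most 44 counts in a library, which limits their precision, and the spread of Bmf in controls (47.9% of its mean) and of Tnfrsf21 in PCBP1-OE (67.7%) was above the counting error (18.9% and 35.4%).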
